A study of Mus musculus with 4 samples.

Results

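The serum amyloid A genes Saa1, Saa2, Saa3 and Saa4 and the short pentraxin genes Apcs and Crp were examined in the livers of mice on atherogenic diets. They were taken as the probes whose platform annotation gives only 1 of these 6 symbols. Each gene had 1 probe, and all 6 probes had a value on all 4 arrays, so the set holds 6 of the 13705 genes measured on every array. The probes are annotated to the RefSeq transcripts of their own genes.

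The mice were males of the inbred strain C57Bl/6J. The 4 groups were an atherogenic diet with high fat for 24 weeks, the same diet with high fat for 6 weeks, an atherogenic diet without the added fat (called plain here) for 24 weeks, and the plain diet for 6 weeks. Each group was measured on 1 two-colour oligonucleotide array, with amplified liver RNA of the diet-fed mice in Cy5 and amplified liver RNA of chow-fed mice in Cy3. The chow had been fed for the same time as the diet, except that no duration of chow is given on the plain 6-week array. The sources used here do not give the ages of the mice, the composition of the diets, the number of animals behind an RNA or whether arrays shared a chow sample. No array had its dyes swapped, so dye preference of a probe and change with diet cannot be told apart.

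All values below are log2 ratios of diet over chow, so 1 unit is a doubling. They rest on taking the deposited ratios for base 10 logarithms, which was inferred and is not stated. The median probe of an array lay between -0.06 and 0.02. Ratios of all probes had an SD of 0.39 with high fat at 24 weeks and 0.37 at 6 weeks, and of 0.46 on the plain diet at 24 weeks and 0.53 at 6 weeks. The files hold ratios and no spot brightness, so the abundance of a transcript and the presence of liver markers as levels could not be checked. Less RNA per cell and fewer cells of a type cannot be told apart in RNA of whole liver.

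On 3 arrays, more probes of different genes shared one ratio than stood at neighbouring values. On the high-fat 24-week array 14 probes stood at exactly -1.28, against a mean of 2.27 at neighbouring values, and on the high-fat 6-week array 14 stood at -1.35, against 1.6. On the plain 24-week array 63 probes stood at 0.59, against 29.0, and on the plain 6-week array no value stood out to that extent. Alb, Apoe and Ttr each had at least 1 probe at or within 0.01 (log10) of the shared ratio on all 3 arrays. Not every probe of Alb and Apoe was that close. Spots saturated in both channels would share a ratio in this way, and the files give no brightness to test it. Ratios of genes with a probe near a shared ratio are therefore not read here as changes of expression. The counts of the gene lists include these genes unless stated. The members lay at least 0.79, 0.88 and 0.55 log2 units from the shared ratio of the high-fat 24-week, high-fat 6-week and plain 24-week arrays. Saturation of a single channel could not be seen.

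Serum amyloid A proteins and pentraxins are plasma proteins of the acute phase response, the shift in liver secretion that follows infection or injury. Interleukin-6 and interleukin-1 from activated macrophages reach hepatocytes, where STAT3, NF-kB and C/EBP factors act on the promoters of acute phase genes. In the mouse, Saa1 and Saa2 are the inducible hepatic serum amyloids that circulate on high-density lipoprotein (HDL), Saa3 is made by macrophages and adipocytes as well as by stimulated liver, and Saa4 is the constitutive form. Apcs encodes serum amyloid P component, the main acute phase pentraxin of the mouse. Crp encodes C-reactive protein, which is the classical acute phase reactant in humans and responds little in the mouse. Both pentraxins bind ligands such as phosphocholine or exposed chromatin in the presence of calcium and engage C1q and Fc receptors.

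The promoter windows below are shown because the probes of Saa1 and Saa2 behaved differently while their promoters are almost the same, and because Apcs and Crp moved in opposite directions. They are RefSeq sequences on build GRCm38.p6, from 250 bases before to 50 bases after each annotated start site, printed 5′ to 3′ on the strand of the gene. All 6 members matched an entry. Saa1 lies at chr7:46742931-46743230 on the minus strand, Saa2 at chr7:46751583-46751882 on the plus strand and Saa3 at chr7:46715627-46715926 on the minus strand. Apcs lies at chr1:172895005-172895304 on the minus strand and Crp at chr1:172697806-172698105 on the plus strand. Capitals mark matches to the 4 short motifs described after the sequences.
Saa1: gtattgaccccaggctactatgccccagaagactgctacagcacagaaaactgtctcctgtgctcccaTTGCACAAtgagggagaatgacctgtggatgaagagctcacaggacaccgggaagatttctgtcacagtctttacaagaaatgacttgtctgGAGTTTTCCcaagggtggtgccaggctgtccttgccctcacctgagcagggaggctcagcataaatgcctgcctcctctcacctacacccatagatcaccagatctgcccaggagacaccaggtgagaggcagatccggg
Saa2: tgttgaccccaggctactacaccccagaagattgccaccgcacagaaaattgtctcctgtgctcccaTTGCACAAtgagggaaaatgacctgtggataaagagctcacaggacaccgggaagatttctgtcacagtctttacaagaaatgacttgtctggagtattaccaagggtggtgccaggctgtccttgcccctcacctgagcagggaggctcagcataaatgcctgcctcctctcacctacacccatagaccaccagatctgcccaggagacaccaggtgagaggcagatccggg
Saa3: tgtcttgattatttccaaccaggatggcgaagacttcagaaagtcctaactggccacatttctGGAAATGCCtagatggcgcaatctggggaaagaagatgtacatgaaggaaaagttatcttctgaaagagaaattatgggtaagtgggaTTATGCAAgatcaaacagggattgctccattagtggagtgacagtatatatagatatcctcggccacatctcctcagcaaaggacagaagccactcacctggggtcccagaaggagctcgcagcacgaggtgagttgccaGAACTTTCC
Apcs: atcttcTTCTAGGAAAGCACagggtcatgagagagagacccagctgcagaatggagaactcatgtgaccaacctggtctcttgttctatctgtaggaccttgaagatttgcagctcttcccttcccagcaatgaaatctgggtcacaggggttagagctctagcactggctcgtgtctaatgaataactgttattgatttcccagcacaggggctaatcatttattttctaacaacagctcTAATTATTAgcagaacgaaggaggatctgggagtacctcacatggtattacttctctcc
Crp: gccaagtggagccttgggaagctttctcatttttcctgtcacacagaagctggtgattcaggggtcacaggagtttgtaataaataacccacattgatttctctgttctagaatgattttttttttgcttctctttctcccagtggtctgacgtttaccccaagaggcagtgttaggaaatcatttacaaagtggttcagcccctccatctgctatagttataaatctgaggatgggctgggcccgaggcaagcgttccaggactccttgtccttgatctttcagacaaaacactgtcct

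The motifs were chosen with the sequences in view and were searched on both strands. They were GNNNTTTCC for NF-kB, held by 19.8% of the 32851 RefSeq promoter windows of this length, TTGCNNAA for C/EBP factors, held by 10.8%, TTCNNNGAA for STAT3, held by 8.3%, and TAATNATTA for the hepatocyte factor HNF1, held by 0.618%. A match is a description of letters and does not show that a factor binds. The start sites of Saa1 and Saa2 lie 8853 bases apart and point away from each other. Their windows align over 299 bases with 287 identical, or 96.0%, whereas the other 14 pairs of the 6 windows were between 59.2% and 66.9% identical. Apcs and Crp, 196998 bases apart on chromosome 1, were 59.9% identical.

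Positions are counted in bases from the start site. Both Saa1 and Saa2 hold the C/EBP match TTGCACAA, which begins at -182 in Saa1 and -183 in Saa2. Saa1 also holds an NF-kB match, GAGTTTTCC, that begins at -90, and Saa2 does not. Of the 12 bases that differ between the windows, T165A and C168A fall in that match, where the first letter is the Saa1 base, the number counts from 1 at the 5′ end of the Saa1 window and the last letter is the Saa2 base. Saa3 holds NF-kB matches that begin at -187 and 42 and a C/EBP match at -99. The window of Saa4, at chr7:46732554-46732853 on the minus strand, holds C/EBP matches at -245 and -52. Apcs holds a STAT3 match at -244 that overlaps an NF-kB match at -239, and an HNF1 match at -9. No match to the 4 motifs was found in the Crp window.

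**Figure D1:**
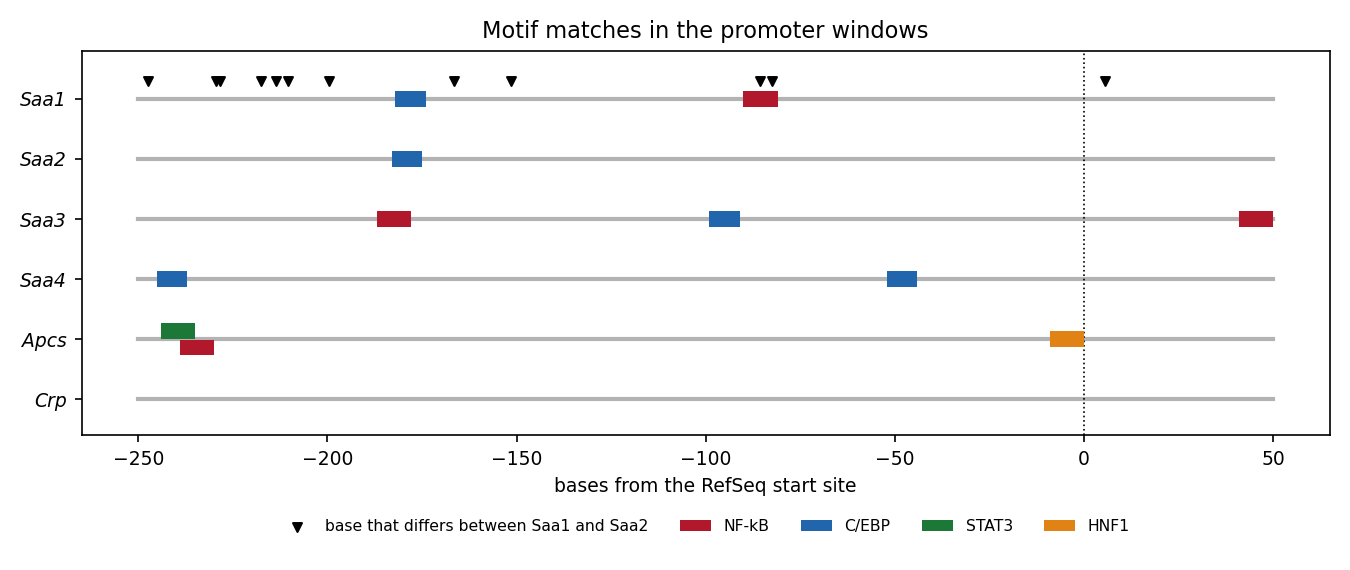
Position of the motif matches in the 6 promoter windows, in bases from the RefSeq start site on the x axis, with 1 line per gene. Triangles above the Saa1 line mark the 12 bases that differ between Saa1 and Saa2, of which 2 fall in the NF-kB match of Saa1, and Crp carries no match.

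The first comparison asks which of the 6 transcripts differed from chow across the diets and durations. The mean of the 4 arrays was tested against 0 with limma, a linear model that borrows information on the spread from all probes, and p-values were adjusted over all 27870 probes by the method of Benjamini and Hochberg. Saa2, Saa3 and Apcs rose with diet, Crp fell, and Saa1 and Saa4 did not pass an adjusted p of 0.05. Of all probes, 10.3% passed in either direction, 5.32% higher and 5.01% lower than chow. With 1 array per group, the error is the spread between the 4 conditions and not the spread between animals.

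The Saa2 probe had log2 ratios of 1.72 and 1.79 on the high-fat 24-week and 6-week arrays, and of 1.68 and 0.93 on the plain 24-week and 6-week arrays. The plain 6-week array thus stood below the other 3, and every array was above chow. The mean was 1.53 ± 0.16 (limma SE, 4 arrays), a 2.89-fold rise over chow (limma adjusted p = 0.00318). This placed Saa2 at rank 76 from the top among all probes. Saa2 stayed past the threshold when any 1 array was left out, with means between 1.45 and 1.73.

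The Saa3 probe had ratios of 0.75 and 1.68 on the high-fat 24-week and 6-week arrays, and of 1.95 and 2.26 on the plain 24-week and 6-week arrays. It was above chow on all 4 arrays, lowest on high fat at 24 weeks and highest on the plain diet at 6 weeks. The mean was 1.66 ± 0.23, a 3.16-fold rise (limma adjusted p = 0.00835), at rank 59. Without the plain 24-week array the mean was 1.56 and the adjusted p was 0.0661.

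The Saa1 probe had ratios of 0.05 and 0.10 on the high-fat 24-week and 6-week arrays, and of -0.27 and -0.25 on the plain 24-week and 6-week arrays. It was slightly above chow with high fat and slightly below with the plain diet, and its mean of -0.09 ± 0.11 did not pass (limma adjusted p = 0.614). Among all probes on an array, Saa1 stood at percentiles 55.0 and 61.7 with high fat at 24 and 6 weeks, and 23.9 and 31.5 with the plain diet at 24 and 6 weeks. Saa2 stood at percentiles 99.7 and 99.9 with high fat, and 99.6 and 95.1 with the plain diet, in the same order of weeks.

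RefSeq lists Saa2 among the synonyms of Saa1 and Saa1 among the synonyms of Saa2, so older sources may carry the opposite name. The names used here follow the transcript to which each probe is annotated. The probe sequences were not used here, and whether the probes tell transcripts of the near-identical copies apart was not tested. A reading of Saa1 against Saa2 is uncertain to that degree.

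The Saa4 probe had ratios of 0.36 and 0.25 on the high-fat 24-week and 6-week arrays, and of -0.39 and 0.17 on the plain 24-week and 6-week arrays. Only the plain 24-week array lay below chow. The mean was 0.10 ± 0.14 (limma adjusted p = 0.688).

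**Figure D2:**
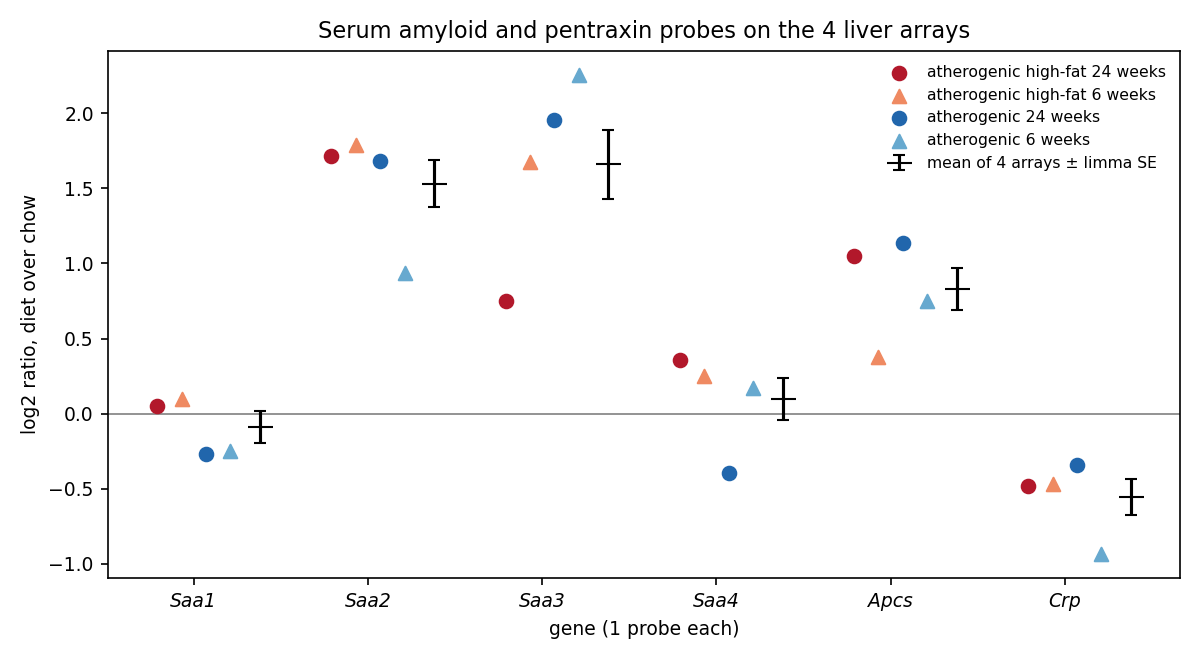
Log2 ratio of diet over chow (y axis) for the probe of each gene (x axis) on the 4 arrays, with the mean and its limma SE in black to the right of each set of points. The 4 Saa2 points lie between 0.93 and 1.79 and the 4 Saa3 points between 0.75 and 2.26, while the Saa1 points lie between -0.27 and 0.10 and every Crp point lies below 0.

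The Apcs probe had ratios of 1.05 and 0.38 on the high-fat 24-week and 6-week arrays, and of 1.13 and 0.75 on the plain 24-week and 6-week arrays. Both 24-week arrays were above both 6-week arrays. The mean was 0.83 ± 0.14, a 1.77-fold rise (limma adjusted p = 0.0159). Without the plain 24-week array the mean was 0.73 and the adjusted p was 0.0898.

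The Crp probe had ratios of -0.48 and -0.47 on the high-fat 24-week and 6-week arrays, and of -0.34 and -0.93 on the plain 24-week and 6-week arrays. It was below chow on all 4 arrays, most on the plain diet at 6 weeks. The mean was -0.56 ± 0.12, or 0.68 times the chow level (limma adjusted p = 0.0333). Crp lost this call whichever array was left out, with adjusted p-values of 0.0776 and 0.0683 without the high-fat 24-week and 6-week arrays, and 0.0932 and 0.0532 without the plain 24-week and 6-week arrays. Its means then lay between -0.63 and -0.43.

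Without the high-fat 24-week, the high-fat 6-week or the plain 6-week array, 3 members rose and none fell, against 5.44%, 6.66% and 7.25% of all probes past the threshold in either direction. Without the plain 24-week array only Saa2 rose (limma adjusted p = 0.0345), and 2.47% of all probes passed.

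The members were then set against each other within each array, where both probes share the same pair of RNA samples. The ratio of Saa2 exceeded that of Saa1 by 1.66 and 1.69 log2 units on the high-fat 24-week and 6-week arrays, and by 1.95 and 1.18 on the plain 24-week and 6-week arrays. The mean difference was 1.62 ± 0.32 (SD, n = 4), or 3.07-fold, with 1 sign on 4 of 4 arrays. The ratio of Saa3 exceeded that of Saa1 by 0.70 and 1.58 on the high-fat 24-week and 6-week arrays, and by 2.22 and 2.50 on the plain 24-week and 6-week arrays. The mean difference here was 1.75 ± 0.80 (SD, n = 4), or 3.36-fold, and it varied more between arrays than that of Saa2.

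Between Saa3 and Saa2 the difference changed sign, with -0.97 and -0.11 on the high-fat 24-week and 6-week arrays and 0.27 and 1.32 on the plain 24-week and 6-week arrays. Its mean of 0.13 ± 0.95 (SD, n = 4) was smaller than its spread. Apcs exceeded Crp by 1.53 and 0.85 on the high-fat 24-week and 6-week arrays, and by 1.47 and 1.68 on the plain 24-week and 6-week arrays. The mean was 1.38 ± 0.37 (SD, n = 4), or 2.61-fold.

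The smallest p that an exact two-sided sign-flip permutation test over 4 arrays can give is 0.13 after rounding. It gave this smallest value for Saa2 against Saa1, Saa3 against Saa1 and Apcs against Crp, and 0.75 for Saa3 against Saa2. Adjusted over the 4 pairs, the exact p was 0.167 for the first 3 and 0.75 for the last. The cause of the difference between Saa1 and the other inducible genes, and between Crp and Apcs, was not tested.

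The next comparison asks whether the added fat changed these ratios, from a model with terms for high fat and for duration fitted to all probes. The model leaves 1 residual degree of freedom, and its error, moderated across probes, does not measure the spread between animals. Of the 6 members, 1 passed, against 15.8% of all probes. Of the probes that passed, 55.3% were higher with high fat, or 45.1% after centring each array on its median. Saa3 averaged 1.21 on the high-fat arrays and 2.10 on the plain arrays, a difference of -0.89 ± 0.18 (limma adjusted p = 0.0284). The difference was -1.20 at 24 weeks and -0.58 at 6 weeks. The high-fat arrays have a narrower spread over all probes, and after scaling the arrays to a common spread the Saa3 difference was -0.16 (limma adjusted p = 0.681). Without the duration term its adjusted p was 0.133.

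Saa1 averaged 0.08 on the high-fat arrays and -0.26 on the plain arrays, 0.33 ± 0.14 apart (limma adjusted p = 0.134), with 0.32 at 24 weeks and 0.35 at 6 weeks. Saa2 averaged 1.75 with high fat and 1.31 on the plain diet, 0.44 ± 0.21 apart (limma adjusted p = 0.17), with 0.03 at 24 weeks and 0.85 at 6 weeks. With the arrays scaled to a common spread the Saa2 difference was 1.12 and passed (limma adjusted p = 0.0269). Saa4 differed by 0.41 ± 0.19 (limma adjusted p = 0.159), with 0.75 at 24 weeks and 0.08 at 6 weeks.

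Neither pentraxin passed for high fat. Apcs averaged 0.71 with high fat and 0.94 on the plain diet (limma adjusted p = 0.303), and Crp averaged -0.48 with high fat and -0.64 on the plain diet (limma adjusted p = 0.552). After scaling, both changed sign, to 0.13 for Apcs (limma adjusted p = 0.55) and -0.11 for Crp (limma adjusted p = 0.618).

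For 24 against 6 weeks no probe passed in limma (0.0% of 27870, 0 of 6 members), also with robust moderation of the variances. An unadjusted p under 0.05 was found for 2655 probes (9.53%). Apcs averaged 1.09 at 24 weeks and 0.56 at 6 weeks, 0.52 ± 0.15 apart (limma adjusted p = 0.409), with 0.67 on high fat and 0.38 on the plain diet. Saa3 averaged 1.35 at 24 weeks and 1.97 at 6 weeks, -0.61 ± 0.18 apart (limma adjusted p = 0.421), with -0.93 on high fat and -0.30 on the plain diet. Saa2 differed by -0.07 on high fat and 0.75 on the plain diet, and Crp by -0.01 and 0.59. Saa1 differed by -0.05 and -0.02, and Saa4 by 0.11 and -0.56.

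**Figure D3:**
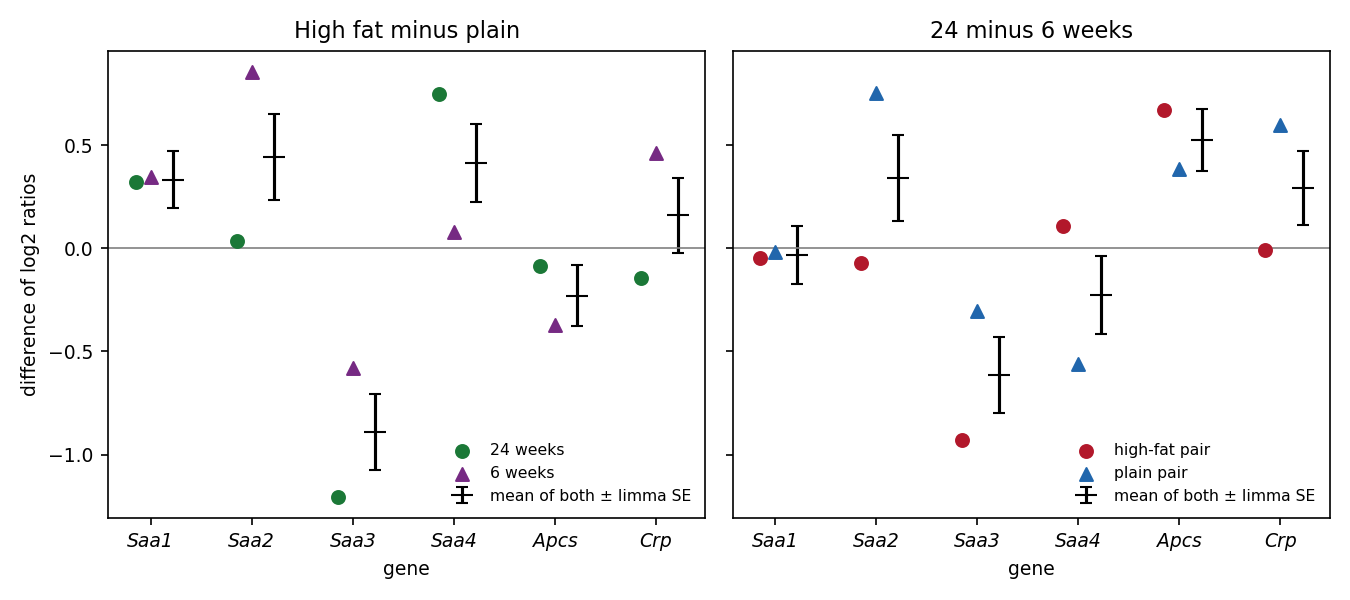
Differences of log2 ratios for each gene, high fat minus plain on the left (circles at 24 weeks, triangles at 6 weeks) and 24 minus 6 weeks on the right (circles on high fat, triangles on the plain diet), with the mean of both and its limma SE in black. Saa3 lies below 0 in both panels for every pair, and Apcs lies above 0 in both pairs of the right panel.

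Genes of the same pathway were read from lists at the gene level, where 6.25% of 13705 genes rose with diet and 5.72% fell, and where the median of the mean ratios over all genes was 0.0046. The lists, like the members, were written with earlier results known, and their counts are descriptions. Of 19 measured genes for other hepatic acute phase proteins, 5 rose and none fell, with a list median of 0.29. Lcn2, which binds bacterial iron carriers, averaged 2.22 ± 0.14 (limma adjusted p = 0.00128). The orosomucoid Orm3 averaged 0.64 ± 0.10 (limma adjusted p = 0.0163), Orm2 0.63 ± 0.13 (0.0273), the metalloreductase Steap4 0.57 ± 0.10 (0.0212) and the lipopolysaccharide carrier Lbp 0.49 ± 0.11 (0.0413). Only 1 gene of the list, Lcn2, rose without the high-fat 24-week or the plain 24-week array, 3 without the high-fat 6-week array and 4 without the plain 6-week array. Calls also became fewer over all 13705 genes, of which 856 rose with every array included. Of these genes 427 and 418 rose without the high-fat 24-week and 6-week arrays. Without the plain 24-week and 6-week arrays 122 and 594 rose. With high fat against plain, 1 gene of this list was higher and 2 were lower, against 3.99% of all genes higher and 7.25% lower. Of the genes that passed, 35.5% were higher with high fat, or 24.8% with centred arrays. The higher gene was the fibrinogen chain Fga, at 0.80 (limma adjusted p = 0.0307). The lower genes, the fibrinogen chains Fgb and Fgg, had a probe within 0.01 (log10) of a shared ratio, and of the 16 genes without such a probe none was lower.

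Of 7 measured negative acute phase proteins, whose secretion drops in the acute phase, Igfals fell, and the list median was -0.28. Igfals, a carrier of insulin-like growth factors, averaged -0.53 ± 0.12 (limma adjusted p = 0.0369). The mean of Alb, for albumin, the most abundant plasma protein, did not pass (limma adjusted p = 0.285). Its 3 probes lay between -1.35 and -1.28 on both high-fat arrays and disagreed on the plain arrays, where Alb had 1 probe at -0.02 and -1.28 at 24 and 6 weeks while the other two stood at 0.59 and 0.74. With high fat against plain, 1 gene of the list passed as higher and 4 as lower. The 4 lower ones, Alb, the thyroxine carrier Ttr, the retinol carrier Rbp4 and Ahsg, each had a probe at or within 0.01 (log10) of a shared ratio, so no change is read from them. The higher one was the steroid carrier Serpina6 (1.10, limma adjusted p = 0.021). Igfals lost its call without the high-fat 24-week, high-fat 6-week or plain 24-week array (limma adjusted p = 0.108, 0.111 and 0.139) and with centred arrays (0.0515).

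Upstream of the members, 2 of 15 cytokine and receptor genes rose and 1 fell, with a median of 0.12. Il1rn, the natural antagonist of the interleukin-1 receptor, averaged 1.04 ± 0.11 (limma adjusted p = 0.00506), and the receptor Il1r1 averaged 0.55 ± 0.10 (limma adjusted p = 0.0233). The receptor subunit Lifr averaged -0.45 ± 0.08 (limma adjusted p = 0.0191), with probe means between -1.03 and -0.14. The ligands Il6, Il1b and Tnf did not pass, with means of 0.24, 0.13 and 0.33 (limma adjusted p = 0.168, 0.709 and 0.439). Il1b had ratios of -0.30 and -0.42 at 24 weeks on high fat and the plain diet, and of 0.49 and 0.74 at 6 weeks on high fat and the plain diet. Only 1 gene of the list, Il1rn, rose without the high-fat 24-week, high-fat 6-week or plain 24-week array. In the same order of arrays, 427, 418 and 122 of all 13705 genes rose. Without these arrays the adjusted p was 0.0662, 0.0684 and 0.0923 for Il1r1 and 0.0673, 0.061 and 0.0919 for Lifr.

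Among 16 genes for signalling proteins and transcription factors, none rose and 1 fell, with a median of 0.06. Cebpb, a C/EBP factor of acute phase promoters, averaged -0.74 ± 0.10 (limma adjusted p = 0.00994). Its 4 probes disagreed, with means between -1.47 and -0.01, and without the plain 24-week array it did not pass (limma adjusted p = 0.0668). Relb, an NF-kB subunit, averaged -0.57 ± 0.22 and did not pass (limma adjusted p = 0.132). Stat3 averaged 0.28 and did not pass either (limma adjusted p = 0.0868).

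Downstream, 1 of 8 receptors described for serum amyloid A rose and none fell, with a median of 0.20. The scavenger receptor Cd36 averaged 0.88 ± 0.17 (limma adjusted p = 0.0252), and without the high-fat 24-week or the plain 24-week array its adjusted p was 0.0646 or 0.0757. The formyl peptide receptor Fpr2 averaged 0.71 ± 0.35 and did not pass (limma adjusted p = 0.221), with 2.19 on the plain 6-week array and at most 0.43 on the others. Of 9 pentraxin receptors and complement partners, 5 rose and none fell, with a median of 0.85. The C1q chains, which pentraxins engage, averaged 1.74 ± 0.17 (C1qb, limma adjusted p = 0.00382), 1.14 ± 0.14 (C1qa, 0.00758) and 1.03 ± 0.13 (C1qc, 0.00771). The Fc receptor gamma chain Fcer1g averaged 1.59 ± 0.12 (limma adjusted p = 0.0019) and the high-affinity receptor Fcgr1 0.85 ± 0.09 (limma adjusted p = 0.00502). Of this list 5 genes rose whichever array was left out, except that 4 rose without the plain 24-week array, where the adjusted p of C1qc was 0.0613. Without that array 122 of all 13705 genes rose.

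For diet over chow none of the 6 other pentraxin genes passed, and their median was 0.01. The neuronal pentraxin Nptx2 averaged -0.43 ± 0.14 (limma adjusted p = 0.0899), and it was lower with high fat than on the plain diet, at -0.57 (limma adjusted p = 0.0452). Svep1 averaged 0.36 ± 0.10 (limma adjusted p = 0.0662), with a probe near the shared ratio of the plain 24-week array. Ptx3, the long pentraxin of macrophages and endothelium, averaged -0.04 (limma adjusted p = 0.864), with probe means of -0.21 and 0.12. Of 9 genes for HDL proteins and HDL remodelling, the particles on which serum amyloid A travels, Pon1 fell and none rose, with a median of -0.13. The antioxidant esterase Pon1 averaged -0.93 ± 0.17 (limma adjusted p = 0.0214), and without the high-fat 24-week or the plain 24-week array its adjusted p was 0.0543 or 0.113. Apoa2 averaged -0.46 ± 0.19 (limma adjusted p = 0.159), and Apoa1, the main HDL protein, averaged 0.16 (limma adjusted p = 0.268).

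**Figure D4:**
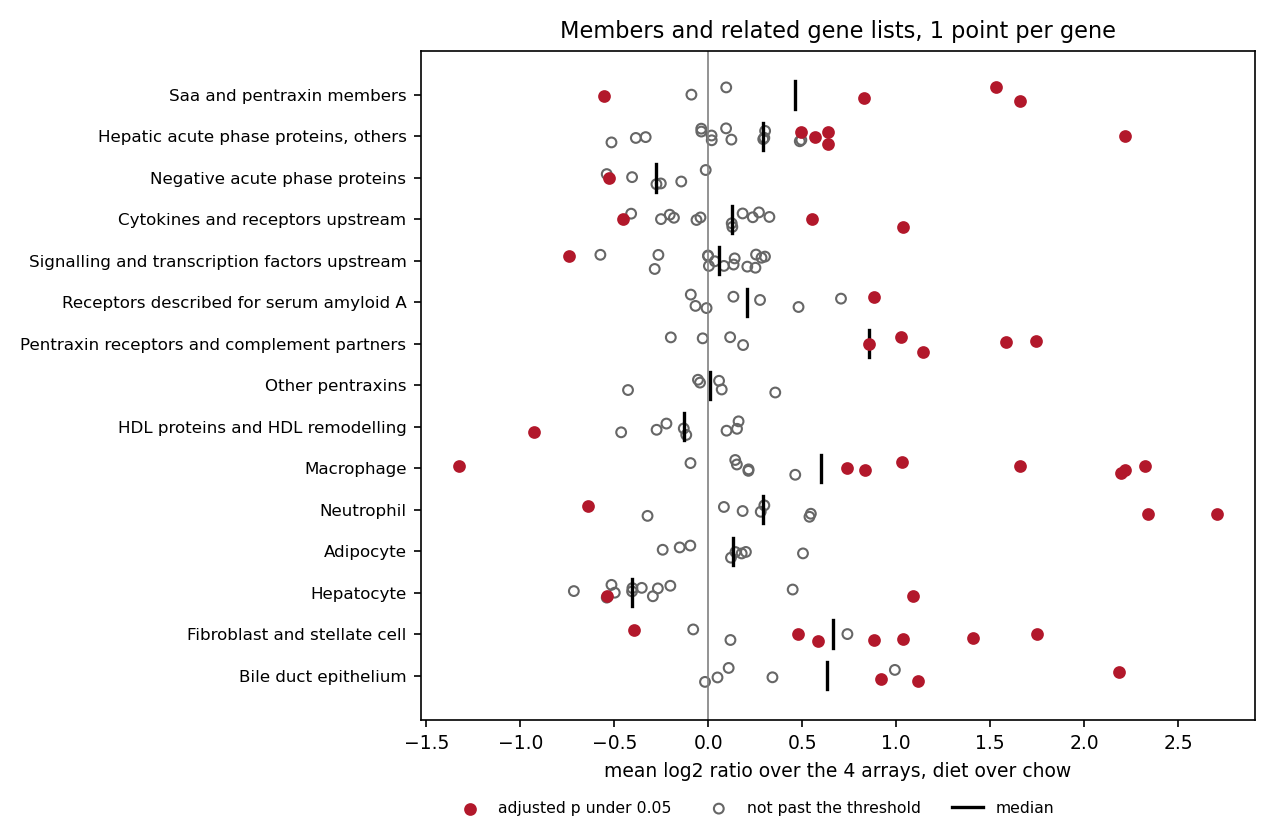
Mean log2 ratio over the 4 arrays (x axis) for the 6 members and for the genes of each list (rows), 1 point per gene, filled where the limma adjusted p is under 0.05, with the median of each row in black. The pentraxin receptor and complement list has a median of 0.85, and the macrophage and fibroblast lists have medians of 0.60 and 0.66.

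Some markers of other cells of the liver also passed for diet over chow, and others did not. Of 14 macrophage markers 7 rose and 1 fell, with medians of 0.31 and 0.71 on the high-fat 24-week and 6-week arrays and 0.67 and 0.91 on the plain 24-week and 6-week arrays. Cd5l, among the 7, had a probe near the shared ratio of the plain 24-week array. Without Cd5l, 6 of 13 rose and 1 fell, with a median of 0.46 over the arrays. The lysosomal protease Ctss averaged 2.32 ± 0.17 (limma adjusted p = 0.00188), the lysozyme Lyz1 2.22 ± 0.08 (0.000807), the fungal receptor Clec7a 2.19 ± 0.29 (0.00882) and Gpnmb 1.66 ± 0.13 (0.0022). Vsig4, a complement receptor of resident macrophages, fell, at -1.33 ± 0.28 (limma adjusted p = 0.0306). Without the plain 24-week array 5 markers rose and none fell, with adjusted p-values of 0.0631 for Clec7a and 0.0996 for Vsig4. In that setting 122 of all 13705 genes rose and 164 fell. Without the high-fat 6-week array the limma adjusted p of Vsig4 was 0.0746.

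Of 10 neutrophil markers 2 rose and 1 fell, with medians of 0.13 and 0.02 on the high-fat 24-week and 6-week arrays and 0.42 and 0.45 on the plain 24-week and 6-week arrays. The calprotectin genes S100a9 and S100a8 averaged 2.70 ± 0.29 (limma adjusted p = 0.00487) and 2.34 ± 0.25 (0.00504), and the elastase Elane averaged -0.64 ± 0.08 (0.00741). None of 8 adipocyte markers passed, with a median of 0.13. Fabp4 averaged 0.50 ± 0.13 (limma adjusted p = 0.0527), with 1 probe at 1.17 and the other at -0.16, and Plin4 averaged -0.24 ± 0.11 (limma adjusted p = 0.181).

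Of 13 hepatocyte markers 1 rose and 1 fell, with a median of -0.40 over the arrays. On single arrays the median was -0.41 and -0.80 with high fat at 24 and 6 weeks, and 0.19 and -0.08 on the plain diet at 24 and 6 weeks. These medians include the 5 markers with a probe near a shared ratio, and over the arrays the median of the other 8 was -0.35. Apoh averaged 1.09 ± 0.21 (limma adjusted p = 0.0245) and Apoc3 -0.54 ± 0.11 (limma adjusted p = 0.0277). Of 10 fibroblast and stellate cell markers 6 rose and 1 fell, with a median of 0.66 and with Col1a2 at 1.75 ± 0.25 (limma adjusted p = 0.011) and Vim at 1.41 ± 0.14 (0.00352). Col3a1 averaged 1.03 ± 0.14 (limma adjusted p = 0.00992), with probe means between -0.22 and 2.36, and Dcn 0.88 ± 0.11 (0.00811). The marker that fell was Pdgfrb, a growth factor receptor of stellate cells, at -0.40 ± 0.08 (limma adjusted p = 0.0266). Of 8 bile duct markers 3 rose and none fell, with a median of 0.63. They were Tspan8 at 2.19 ± 0.20 (limma adjusted p = 0.00299), Bicc1 at 1.11 ± 0.24 (0.0351) and Krt23 at 0.92 ± 0.15 (0.0168). The other 5 did not pass, with Epcam at 0.99 (limma adjusted p = 0.0895), Krt19 at 0.34 (0.242), Krt7 at 0.11 (0.633), Cftr at 0.05 (0.779) and Sox9 at -0.02 (0.93).

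Without the plain 24-week array, 2 of the fibroblast, 1 of the bile duct and none of the hepatocyte markers rose. Of all 13705 genes, 122 rose and 164 fell without that array, against 856 and 784 with every array included. The adjusted p-values were then 0.0686 for Col1a2, 0.0698 for Col3a1, 0.111 for Pdgfrb, 0.0945 for Krt23, 0.0758 for Bicc1, 0.0881 for Apoh and 0.112 for Apoc3. Without the high-fat 24-week array they were 0.0754 for Apoc3, 0.0715 for Bicc1 and 0.107 for Pdgfrb, and without the high-fat 6-week array 0.0597 for Apoh, 0.08 for Apoc3, 0.0617 for Bicc1 and 0.0796 for Pdgfrb.

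Of all genes, 7.25% passed as lower with high fat than on the plain diet and 3.99% as higher. Saa3 was lower with high fat, though not past the threshold after scaling, and some cell markers were lower too. They were 2 of 14 macrophage markers (Vsig4 at -1.18, limma adjusted p = 0.0194, and Itgax at -0.83, 0.0293) and 2 of 10 neutrophil markers (Ngp at -1.05, 0.0251, and Camp at -0.95, 0.0187). Of 8 bile duct markers Krt19 was lower (-0.75, limma adjusted p = 0.0252). Of 13 hepatocyte markers, 5 had a probe within 0.01 (log10) of a shared ratio. Of the other 8, the tyrosine-degrading enzyme Hpd was lower, at -0.85 (limma adjusted p = 0.021). The hepatocyte markers Fah (0.92, limma adjusted p = 0.037) and F2 (0.62, 0.0365) were higher, and no fibroblast or adipocyte marker passed. The part of these cell types in the ratios of the members was not tested. Of 15 named list genes that passed for high fat, none passed without the duration term, where 8 of all genes did.

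Among 16738 probes with 1 named gene, those closest to each member over the 4 arrays were found by the root mean square difference of log2 ratios. For Saa2 they were Aoah (0.228), Col5a2 (0.305) and Gpnmb (0.314). Aoah, which removes acyl chains from bacterial lipopolysaccharide, had ratios of 1.94 and 1.56 on the high-fat 24-week and 6-week arrays and 1.36 and 0.96 on the plain 24-week and 6-week arrays. For Saa3 they were the defensin Defb1 (0.265), the calcium-binding S100a4 (0.296) and Slfn2 (0.35). Like Saa3, Defb1 was lowest on high fat at 24 weeks (0.72) and highest on the plain diet at 6 weeks (2.14).

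For Apcs the nearest were Tax1bp3 (0.0891), Birc2 (0.0968) and Fgl1 (0.106). Fgl1 encodes a hepatocyte-secreted fibrinogen-like protein and had ratios of 1.01 and 0.46 on the high-fat 24-week and 6-week arrays and 1.30 and 0.86 on the plain 24-week and 6-week arrays. For Crp they were Mttp (0.038), which loads lipid onto apolipoprotein B, Mmp11 (0.0454) and Asb11 (0.0548). Saa1 lay nearest to Esco1 (0.0122), Fkbp1b (0.0237) and Nkapl (0.0244), and Saa4 to Ung (0.0327), Cant1 (0.0445) and Krt82 (0.05). Probes near 0 have many close neighbours on a scale of differences, and these 4 arrays share their processing, so nearness is a description only.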

How the data were processed

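Liver RNA was measured on 4 two-colour arrays, 1 per diet and duration, with Cy5 for diet and Cy3 for chow, per the labels. Spots were read with GenePix Pro 4.1 and normalized by LOWESS in GeneSpring 7.2, per the design text of the series. No source used here gives how background was corrected or spots were filtered. The authors deposited signed ratios on a log scale, taken here as log10 with diet on top. Base, direction and centring of the values are not stated: the interquartile range on the plain 6-week array would be a 13.5% difference in ratio as base 2 and 52.4% as base 10, and the direction was taken from the dyes. Median deposited log10 values were 0.006, 0.006, -0.005 and -0.019 on the high-fat 24-week, high-fat 6-week, plain 24-week and plain 6-week arrays. Values were converted to log2. Of 28845 probes, 975 with a missing value were left out. The platform annotation gave 1 symbol for 17637 probes, several for 64 and listed no gene for 11144.

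Tests used limma 3.58.1 in R 4.3.3 (lmFit, eBayes, two-sided, Benjamini-Hochberg over all probes, threshold 0.05), with 3 residual degrees of freedom for diet over chow and 1 for the model with high-fat and duration terms. Gene values are means of probes. After the values were seen, ratios shared by many probes were sought on each array as the deposited value (in steps of 0.001) whose probe count most exceeded the mean of 20 steps on each side, by over 5 times the square root of that mean plus 0.5. Pairs were compared by exact permutation in scipy 1.17.1, and promoters were aligned with Biopython 1.88. The scripts were tested on simulated data. The members, lists and tests were chosen with earlier results of these data known. Named were the 6 members, per list up to 4 genes that passed and had the same sign on every array, or else the 2 of largest mean, and 3 nearest genes per member. Lbp, Fcgr1, Vsig4, Pdgfrb, Il6, Il1b, Tnf, Stat3, Ptx3, Apoa1 and most of the genes named for high fat alone were added after their values were seen. Alternatives were centring, scaling, no filter on missing values, gene means, robust eBayes, other thresholds, models and log bases, and leaving out each array. The number of arrays limits the precision.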

Additional observations from a re-analysis of the deposited data

Results flagged for a closer look

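Saa1 had opposite signs in both diets, with both high-fat arrays above chow and both plain arrays below. The high-fat minus plain difference of log2 ratios was 0.33 ± 0.14 and did not pass the test of the difference itself (limma adjusted p = 0.134). Saa3 differed by -0.89 (limma adjusted p = 0.0284), with means of 1.21 on high fat and 2.10 on the plain diet. After scaling the arrays to a common spread it differed by -0.16 and did not pass (limma adjusted p = 0.681).

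Other genes named in the text also differed between high fat and plain in limma. Apoa2 differed by -0.90 (adjusted p = 0.0194), with ratios of -0.98 and -0.84 on the high-fat 24-week and 6-week arrays and 0.00 and -0.03 on the plain 24-week and 6-week arrays. Cd36 differed by 0.73 (adjusted p = 0.0329), with ratios of 1.05 and 1.44 on the high-fat 24-week and 6-week arrays and 0.50 and 0.53 on the plain 24-week and 6-week arrays. Of the 8 receptors described for serum amyloid A, 1 passed as higher with high fat, Cd36, and 1 passed as lower. Nptx2 differed by -0.57 (adjusted p = 0.0452) and Relb by 0.92 (adjusted p = 0.023). Alb differed by -1.53 (adjusted p = 0.00836). It had probes at or near the shared ratio on 3 arrays, and its probes disagreed on the plain arrays, so no change is read from it. Lower with high fat, with adjusted p-values given in the report, were Hpd (-0.85), Vsig4 (-1.18), Itgax (-0.83), Ngp (-1.05), Camp (-0.95) and Krt19 (-0.75). Higher with high fat were Serpina6 (1.10), Fga (0.80), Fah (0.92) and F2 (0.62).

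In 2 further genes the arrays of one kind lay above chow and those of the other below, without passing the test. Ptx3 had ratios of 0.10 and 0.41 on the high-fat 24-week and 6-week arrays and -0.25 and -0.44 on the plain 24-week and 6-week arrays, a difference of 0.59 (limma adjusted p = 0.0588). The pattern was not shared by both Ptx3 probes: 1 had -0.49 and -1.06 on the plain 24-week and 6-week arrays, and the other -0.0033 and 0.19. Il1b differed by -0.98 between 24 and 6 weeks (limma adjusted p = 0.164). Each of these differences rests on 2 arrays against 2.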

How the results depend on the processing

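Saa1, Saa2 and Saa4 kept their direction and their side of the threshold for diet over chow under all 14 alternatives tried. Only centring, scaling and leaving out an array could change a direction. For Saa2, above chow on every array, scaling and leaving 1 out could not do so either. Other log bases could change neither direction nor p-value. The number of probes past the threshold for diet over chow, 2880, was 10181 with diet and duration terms, 736 at an adjusted p of 0.01, 5134 at 0.10, 1640 with gene means (of 13705 genes), and between 689 and 2020 when 1 array was left out. At an adjusted p of 0.01 Apcs (0.83) and Crp (-0.56) did not pass. With 1 array left out the means ranged from 1.46 to 1.96 for Saa3, from 0.73 to 0.98 for Apcs and from -0.63 to -0.43 for Crp. Of the other genes named for diet over chow, 20 lost their call without the plain 24-week array, 12 and 10 without the high-fat 24-week and 6-week arrays, and 1 without the plain 6-week array. Means that had not passed changed sign when 1 array was left out, ranging from -0.0775 to 0.31 for Il1b, from -0.0338 to 0.542 for Tnf and from -0.195 to 0.0869 for Ptx3, which was at 0.0238 after scaling. For high fat over plain, 4411 probes became 1541 with gene means and 740 without the duration term. Of the 15 genes of the lists named for high fat, all passed with centred arrays and with robust moderation, 14 with scaled arrays (F2 was at 0.40) and none without the duration term. Scaling the arrays to a common spread turned the high-fat difference of Apcs to 0.127 and of Crp to -0.106, neither past the threshold, brought Saa2 past it at 1.12 and took Saa3 out at -0.16; the cause was not tested. For 24 against 6 weeks the count was 0 under every alternative. Saa2 minus Saa1, Saa3 minus Saa1 and Apcs minus Crp were above 0 on every array. Neither scaling the arrays nor leaving 1 out could therefore change their sign. The mean of Saa3 minus Saa2 ranged from -0.27 to 0.49 when 1 array was left out. Read as natural or base 2 logarithms, the mean log2 ratio of Saa2 would be 0.66 or 0.46 and that of Saa3 0.72 or 0.50, at the same p-values. By replicate number no paired analysis was possible because each group has 1 array, while the duration term of the high-fat model pairs arrays by time. With no replicate array, no dye swap and no spot brightness, differences between animals, dye preference and saturation could not be assessed. Whether saturation gave the shared ratios described in the report was not tested.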
